A study of Homo sapiens with 8 samples.

Results

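Glycolysis splits glucose into pyruvate, and the pentose phosphate pathway branches from its first intermediate to make NADPH and ribose for nucleotides. Proliferating lymphoid cells are known for high glucose uptake and for turning much of the pyruvate into lactate. Glucocorticoids are known to lower glucose use in lymphoid cells, and the question put to the data was whether the transcripts of this machinery moved in leukaemic T cells given the hormone. The genes examined were 34 listed members: glucose transporters, the glycolytic enzymes, the enzymes that set fructose 2,6-bisphosphate, lactate genes, pyruvate dehydrogenase and its kinases, and pentose phosphate genes. Each gene was read on the probe set that carries its single symbol in the platform annotation and has the highest mean over the 8 arrays. This gave 32 measured members among 19775 genes. SLC16A1 and SLC16A3, which encode lactate transporters, had no single-symbol probe set and were not analysed here.

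The cells were CCRF-CEM-C7-14, a human acute lymphoblastic leukaemia line of T lineage that responds to glucocorticoids. Serum stripped with charcoal, which removes steroids, was used in the medium of every group. The groups were 3 untreated arrays at 0 h, 3 arrays after 2 h and 2 arrays after 10 h with 1 µM dexamethasone, a synthetic glucocorticoid. They are labelled biological replicates of this single line, and the p-values cover no spread beyond that of these cultures. With no vehicle group at the later times among the samples, hormone and time in culture cannot be told apart. Values are log2 expression, so a difference of 1 is a 2-fold change.

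Array medians ran from 4.68 to 5.01, and 3 arrays with the lowest medians (0 h replicate 2, 2 h replicate 3 and 10 h replicate 1) stood apart from the other 5. Each of these sets holds a single array at 10 h, so a 10 h difference within a set carries no spread of that time. Negative control probe sets reached 4.73, and all 32 members had a mean above that. Of 12 T-lineage markers 11 lay above it, with CD3D at 13.01 and CD2 at 4.72, against 2 of 6 myeloid markers, with LYZ at 3.32 and MPO at 4.25. Of 6 B-lineage markers 4 lay above it, with CD79A at 8.78 and MS4A1 at 4.09, and of 6 epithelial and stromal markers 5 did, with EPCAM at 8.56 and KRT18 at 4.35. None of these markers was called by the moderated F test over the 3 times. In bulk RNA, fewer cells with a transcript and less of it per cell cannot be told apart.

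On the brightest probe set of each gene, none of the 32 members passed at either time. After 2 h, 0 of 32 were called at an adjusted p below 0.05, where 0.0202% of all genes were, and after 10 h, 0 of 32, where 0.354% were. The same held for 10 h against 2 h, where 0.167% of all genes were called, and for the F test over the 3 times, where 0.283% were. At those background shares, a count of 0 among 32 genes is not a result about the members. PFKFB2 was the exception once every probe set was tested by itself: it rose 5.77-fold by 10 h on a probe set that is not its brightest. At 10 h the 95% interval of the change lay within 2-fold for 28 of the 32 members, or 87.5%, beside 96.9% of all genes. It lay within 1.5-fold for 21 of 32, beside 10031 of 19775.

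**Figure D1:**
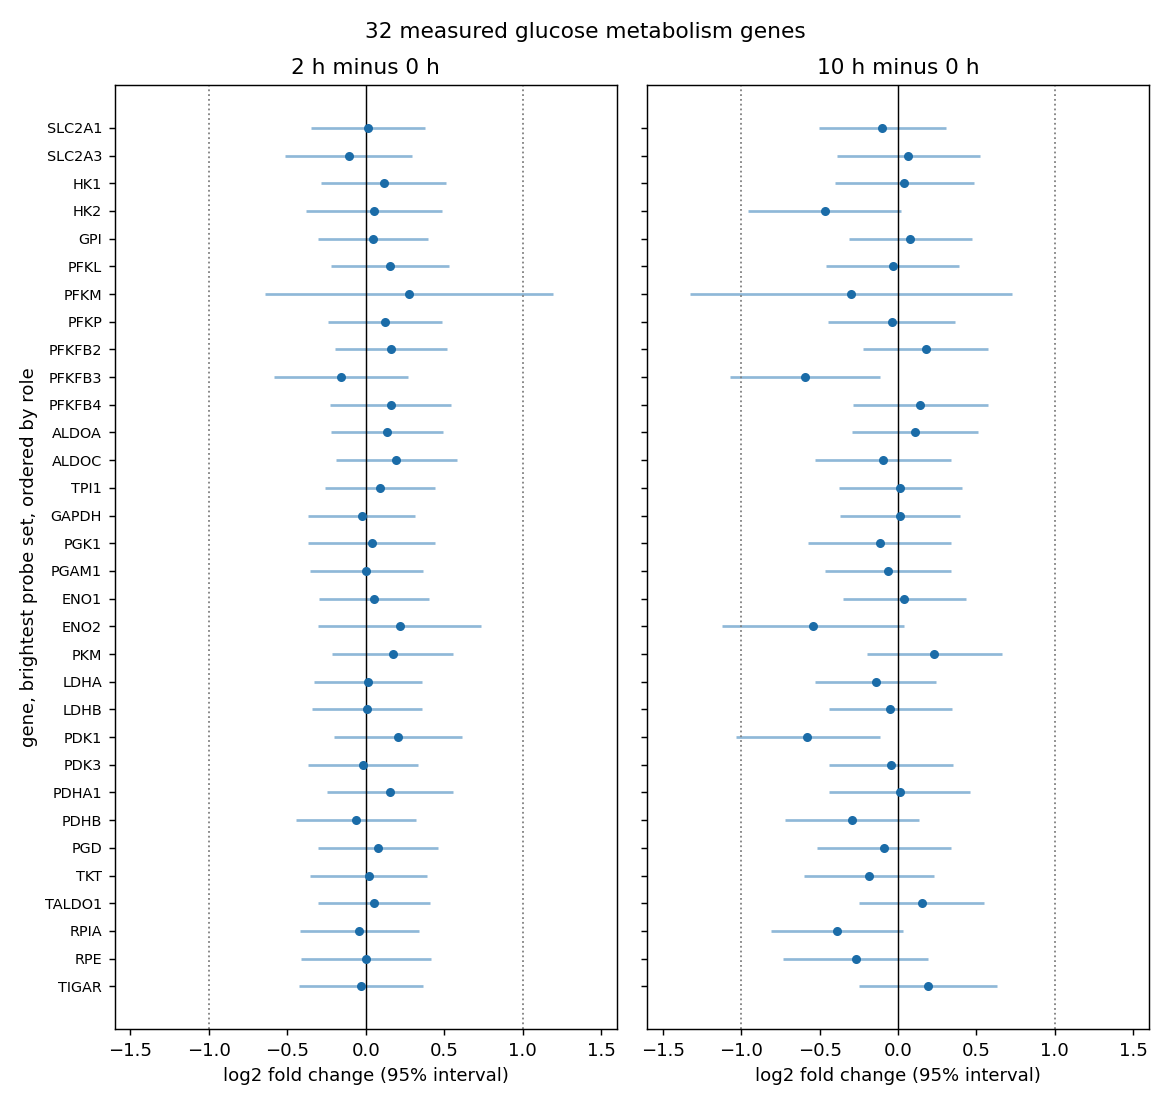
Log2 fold change (x axis) of each of the 32 measured genes (y axis, by role) on its brightest probe set at 2 h and at 10 h against 0 h. Points are fitted values, bars are 95% intervals and dotted lines mark 2-fold. PFKFB3 at −0.59 and PDK1 at −0.58 lie lowest at 10 h, and PFKM has the widest interval.

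At 2 h the members lay close to their untreated values. The log2 fold changes ran from −0.16 to 0.27 with a median of 0.05, beside 0.02 for all genes, and 31 of 32 were under 0.25 in size, as were 89.9% of all genes. At an unadjusted p below 0.05, 0 members were higher and 0 lower, where 0.637% and 0.308% of all genes were. No member had 2 h arrays wholly above or wholly below the untreated ones, which 2.94% and 1.1% of all genes had. At 10 h the values ran from −0.59 to 0.23 with a median of −0.05, beside −0.02 for all genes, and 24 of 32 were under 0.25 in size, as were 80.8% of all genes.

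On the brightest probe sets, the larger values at 10 h were on the low side. At an unadjusted p below 0.05, 0 members were higher and 2 were lower, PFKFB3 and PDK1, where 2.15% and 1.29% of all genes were. The 10 h arrays lay wholly above the untreated arrays for PFKFB2 and wholly below them for 6 members: HK2, PFKFB3, LDHA, PDK1, PDHB and RPIA. Of all genes, 6.56% were wholly above and 6.51% wholly below. Against 2 h, 25 of 32 values were negative beside 11365 of 19775 for all genes, with a median of −0.13, beside −0.03. Without 10 h replicate 1 the members' median was −0.02, and without 10 h replicate 2 it was −0.18. At an unadjusted p below 0.05, 3 were lower, HK2, ENO2 and PDK1, and 0 higher, where 1.77% and 1.38% of all genes were. For 8 members the 10 h arrays lay wholly below the 2 h arrays and for 0 wholly above, which 9.29% and 5.43% of all genes showed. The contrasts with 10 h share the same 2 arrays.

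The enzymes that set fructose 2,6-bisphosphate held the one called change. This sugar phosphate is the main activator of phosphofructokinase, and PFKFB2, PFKFB3 and PFKFB4 encode bifunctional enzymes that make it and break it down. PFKFB2 was measured by 4 single-symbol probe sets. They are taken here in order of mean level. The brightest read 5.74, 5.59 and 5.89 at 0 h, 5.88, 5.99 and 5.84 at 2 h, and 5.91 and 5.93 at 10 h. The 10 h arrays thus lay just above the untreated ones, and the difference of 0.18 ± 0.19 (SE) on the log2 scale did not pass (adjusted p = 1.00), with a 95% interval of −0.22 to 0.57.

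The second probe set gave a different picture of the same gene. It read 4.32, 4.09 and 4.06 in untreated cells, 5.19, 4.97 and 4.71 after 2 h, and 7.23 and 6.13 after 10 h. Every 2 h array lay above every untreated array, and both 10 h arrays lay above every 2 h array. The rise at 10 h was 2.53 ± 0.27 (SE) on the log2 scale, or 5.77-fold with a 95% interval of 3.88 to 8.58 (limma over 41091 probe sets, adjusted p = 0.00013). Between 2 h and 10 h it rose by 1.73 ± 0.27 (SE; adjusted p = 0.0105). That later rise was called in 13 of 17 alternatives. It was lost without 10 h replicate 1 (1.18, adjusted p = 0.331), without 2 h replicate 3 (1.61, adjusted p = 0.0576), without the 3 arrays of lowest median (1.05, adjusted p = 0.676) and after quantile normalization (1.75, adjusted p = 0.0549). At 2 h it had 0.80 ± 0.24 (SE; unadjusted p = 0.0045, adjusted p = 1.00), which did not pass. The untreated values lay within the range of the negative controls, so the starting level, and with it the fold, is uncertain.

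The third probe set was also called. It read 4.03, 3.68 and 4.38 at 0 h, 4.89, 5.22 and 4.21 at 2 h, and 5.21 and 5.89 at 10 h, so the 2 h arrays overlapped both other times while 0 h and 10 h did not overlap. Its rise at 10 h was 1.52 ± 0.29 (SE; 2.87-fold, adjusted p = 0.0316). The untreated values, and the mean over the arrays of 4.69, lay below the highest negative control, so this fold is uncertain too. The call was lost, with values of like size, without 0 h replicate 1 (1.52, adjusted p = 0.0997), 0 h replicate 2 (1.349, adjusted p = 0.136) or 10 h replicate 1 (1.86, adjusted p = 0.0513). It was also lost without 10 h replicate 2 (1.18, adjusted p = 0.752) and without the 3 arrays of lowest median (1.69, adjusted p = 0.0696). The fourth had 0.66 ± 0.24 (SE; adjusted p = 1.00) at 10 h from a mean over the arrays of 4.06. The 10 h intervals of the second probe set (1.95 to 3.10) and of the brightest (−0.23 to 0.58 in the same fit) did not meet.

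**Figure D2:**
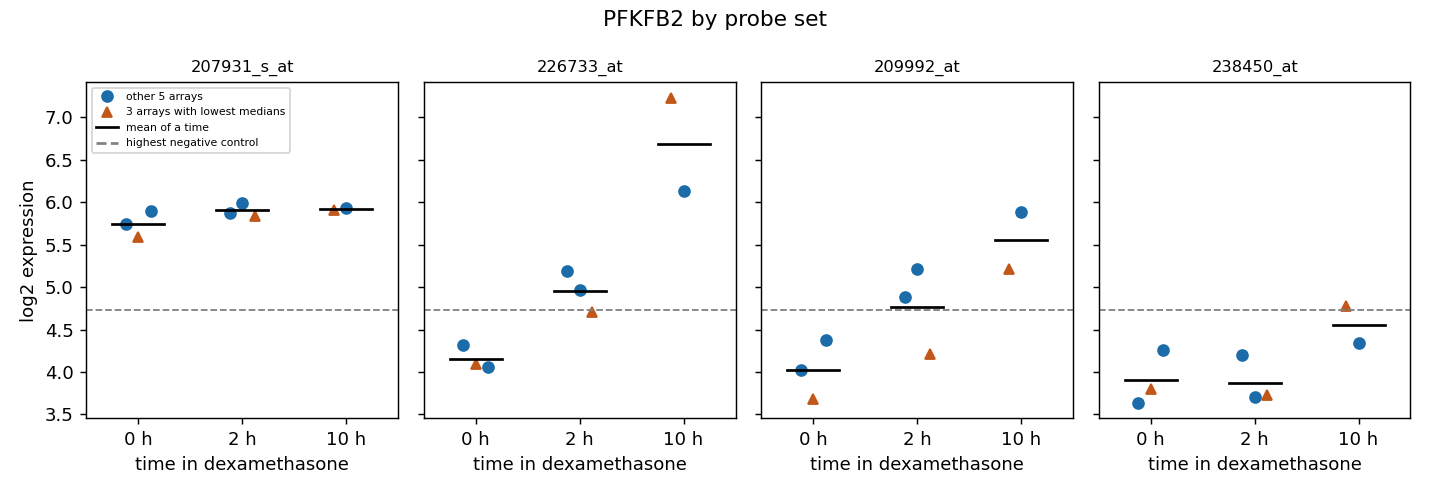
Log2 expression (y axis) of the 4 PFKFB2 probe sets, brightest at left, in each array against time in dexamethasone (x axis). Bars are means of a time, triangles are the 3 arrays with the lowest medians, and the dashed line is the highest negative control at 4.73. The second goes from a mean of 4.16 to 6.68 while the brightest stays between 5.59 and 5.99.

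The rise on the second probe set was called in all 17 tested alternatives run on it, which were added after its values were seen. Among the 3 arrays of lowest median the difference was 3.15, and among the other 5 it was 1.94. It was 1.98 without 10 h replicate 1 and 3.08 without 10 h replicate 2. Without those 3 arrays it was still called (adjusted p = 0.0250). PFKFB2 as a gene was called at 10 h when all its probe sets were averaged, at 1.22 (adjusted p = 0.0015), and when probe sets whose names carry no cross-hybridization mark came first, at 2.53 (adjusted p = 3.7e-05). Over all 32 members, 75 single-symbol probe sets were measured. At 10 h 2 of the 75 were called, both of PFKFB2, beside 0.333% of all probe sets. At 2 h 0 were called, beside 0.0122%, and for 10 h against 2 h 1 was called, beside 0.146%.

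**Figure D3:**
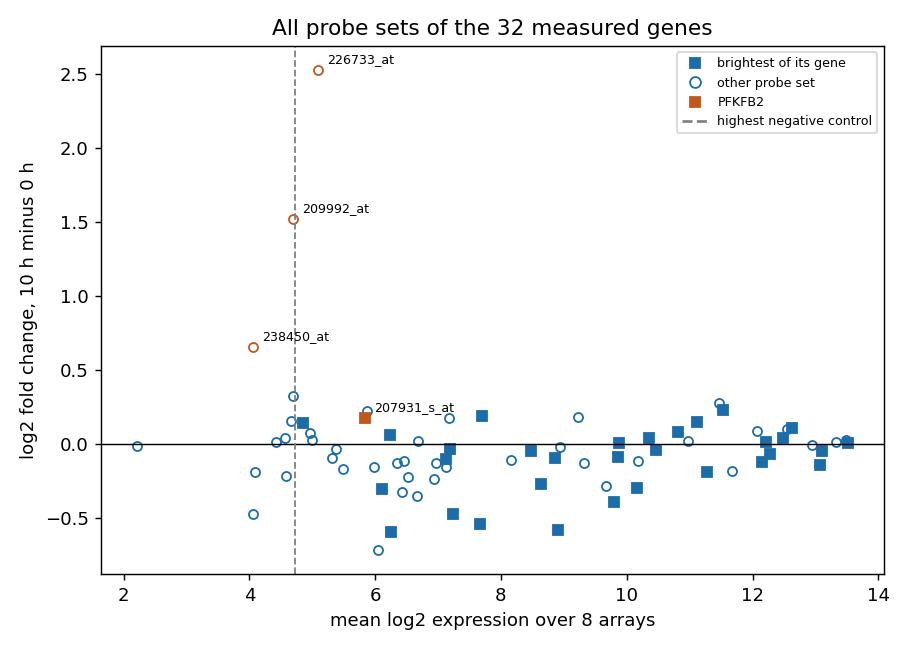
Log2 fold change at 10 h against 0 h (y axis) against mean log2 expression over 8 arrays (x axis) for the 75 probe sets of the 32 measured genes. Filled squares are the brightest of each gene, circles are the others, and the dashed line is the highest negative control. 3 PFKFB2 probe sets lie above 0.5, at 0.66, 1.52 and 2.53, and no other probe set does.

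PFKFB3, the isoenzyme with the strongest kinase activity, lay on the other side of 0. It read 6.60, 6.30 and 6.45 at 0 h, 6.16, 6.11 and 6.62 at 2 h, and 5.56 and 6.16 at 10 h. Both 10 h arrays lay below all untreated arrays, and the higher of them was level with the 2 h arrays. The log2 fold change at 10 h was −0.59 ± 0.23 (SE; unadjusted p = 0.018, adjusted p = 1.00), with an interval of −1.07 to −0.11. It was −0.29 without 10 h replicate 1 and −0.89 without 10 h replicate 2. PFKFB3 has a single probe set, so no other reading of the gene was at hand. PFKFB4 read between 4.56 and 5.06 over the 8 arrays and had 0.16 at 2 h and 0.14 at 10 h. Its untreated arrays, at 4.56, 4.67 and 5.04, sat around the negative control maximum of 4.73, so a change in PFKFB4 could go unseen. The other PFKFB4 probe set averaged 4.69, under that maximum, and had 0.31 at 2 h and 0.33 at 10 h, without a call.

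PDK1 encodes a kinase that phosphorylates and inhibits pyruvate dehydrogenase, the gate from pyruvate to the citric acid cycle. It read 8.96, 8.62 and 9.37 at 0 h, 9.20, 9.10 and 9.26 at 2 h, and 8.35 and 8.46 at 10 h. Both 10 h arrays lay below all 6 others. The log2 fold change was −0.58 ± 0.22 (SE; unadjusted p = 0.017, adjusted p = 1.00) against 0 h. Against 2 h it was −0.78 ± 0.22 (SE, unadjusted p = 0.0022, adjusted p = 0.439), the smallest p among the members' brightest probe sets in this comparison. Its other probe sets had −0.22 and −0.19 at 10 h against 0 h, and the mean of the 3 had −0.33. Among the 3 arrays of lowest median the difference was −0.27, and among the other 5 it was −0.70.

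The other genes at the pyruvate gate lay nearer 0. PDK3, a sister kinase, ran from 8.37 to 8.59 over all arrays, with −0.05 ± 0.19 (SE) at 10 h. PDHA1 and PDHB, the alpha and beta subunits of the dehydrogenase component, had 0.01 ± 0.21 and −0.29 ± 0.20. For PDHB the 10 h arrays, at 9.91 and 10.03, lay below the lowest untreated array at 10.04, the second of them by less than the spread among the untreated arrays.

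Promoter sequences are shown for PFKFB3 and PDK1, because MYC and the hypoxia-inducible factor are textbook regulators of such promoters. On the brightest probe sets, these were the 2 members past an unadjusted p of 0.05 at 10 h against 0 h. No promoter sequence was at hand for PFKFB2, which was called on other probe sets. The sequences are the 250 bases before a transcription start, 5′ to 3′, from RefSeq on GRCh38.p14. Both are on the plus strand, and capitals mark the motifs searched. For each gene the start shown is the one of 2 listed whose stretch holds ACGTG.
PFKFB3 (chr10:6202682-6202931): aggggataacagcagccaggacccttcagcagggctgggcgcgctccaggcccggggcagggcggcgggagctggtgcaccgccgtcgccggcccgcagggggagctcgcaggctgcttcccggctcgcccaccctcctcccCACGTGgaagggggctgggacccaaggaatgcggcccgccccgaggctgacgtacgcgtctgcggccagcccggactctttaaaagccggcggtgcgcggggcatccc
PDK1 (chr2:172555840-172556089): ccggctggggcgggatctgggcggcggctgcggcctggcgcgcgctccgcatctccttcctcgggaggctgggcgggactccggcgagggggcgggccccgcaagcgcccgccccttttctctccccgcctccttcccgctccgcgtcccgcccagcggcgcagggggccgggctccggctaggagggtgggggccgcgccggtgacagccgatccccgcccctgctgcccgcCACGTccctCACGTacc
The PFKFB3 stretch holds the E-box CACGTG once. This palindrome contains the hypoxia response core ACGTG on both strands. The PDK1 stretch holds 2 ACGTG cores, both on the reverse strand. These starts were picked for ACGTG, so its presence in them is not a result. The stretch at the other PDK1 start holds 0 of the motifs searched. That at the other PFKFB3 start holds 1 GCGTG and 0 of the other motifs.

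The motifs were counted, on both strands, in windows from 250 bases before to 50 after the start. Of the 34 listed genes 31 had such a window, 57 windows in all; the others are SLC2A3, PFKFB2 and SLC16A1. CACGTG was in 7 of the 57 windows, beside 7.26% of 35116 windows of all genes. ACGTG, which CACGTG contains, was in 22 of 57, beside 21.4%, and GCGTG was in 24 of 57, beside 36.5%. The full palindromic glucocorticoid response element was in 0 of 57 and in 1 of all windows. Its single arm AGAACA was in 4 of 57, beside 14.8%. These are matches of letters in a short window, and binding was not measured.

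Neither transcript of a glucose transporter passed the test. SLC2A1, the main basal glucose transporter, read 7.14, 7.24 and 7.04 at 0 h, 7.22, 7.29 and 6.95 at 2 h, and 7.06 and 7.02 at 10 h. The 3 times overlapped, and the 10 h value was −0.10 with an interval of −0.51 to 0.30. SLC2A3, a high-affinity transporter, read 6.28, 6.01 and 6.48, then 6.26, 6.15 and 6.03, then 6.06 and 6.59, again overlapping. It had 0.07 ± 0.22 (SE) at 10 h, and its 3 probe sets ran from 0.07 to 0.23. On 1 of these, not the brightest, both 10 h arrays (5.99 and 6.07) lay above the untreated ones (5.86, 5.71 and 5.83), without a call.

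Hexokinase traps glucose in the cell by phosphorylating it. HK1, the housekeeping form, read 10.25, 10.05 and 10.61 at 0 h, 10.28, 10.58 and 10.38 at 2 h, and 10.22 and 10.47 at 10 h, with 0.04 ± 0.21 (SE) at 10 h. HK2, the inducible form, read 7.43, 7.68 and 6.88 at 0 h, 7.26, 7.27 and 7.61 at 2 h, and 6.86 and 6.87 at 10 h. The 10 h arrays were the lowest of the 8, but 0 h replicate 3 was just above them. HK2 had −0.47 ± 0.23 (SE; unadjusted p = 0.057, adjusted p = 1.00), with an interval of −0.95 to 0.02. Its other probe sets had −0.35 and −0.12. Its difference was −0.82 among the 3 arrays of lowest median and −0.29 among the rest. GPI, the isomerase of the next step, ran from 10.69 to 10.91 and had 0.08 at 10 h.

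Phosphofructokinase is the committed step of glycolysis. PFKP, the platelet-type subunit, read 10.63, 10.25 and 10.39 at 0 h, 10.47, 10.57 and 10.60 at 2 h, and 10.32 and 10.45 at 10 h, with −0.04 ± 0.19 (SE) at 10 h. PFKL, the liver-type subunit, had −0.03 ± 0.20. PFKM, the muscle-type subunit, varied between arrays of the same time more than any other member. It read 5.44, 5.58 and 7.21 at 0 h, 5.42, 6.20 and 7.42 at 2 h, and 5.49 and 6.06 at 10 h. The high arrays were replicate 3 at 0 h and at 2 h, and the within-time SD was 0.91, beside a median of 0.18 over the members and 0.23 over all genes. Its interval at 10 h, −1.33 to 0.73, was the widest of the 32.

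Lower glycolysis held the steadiest member. GAPDH, which makes NADH, read 13.58, 13.50 and 13.50 at 0 h, 13.49, 13.52 and 13.49 at 2 h, and 13.51 and 13.56 at 10 h. Its range over the 8 arrays was 0.09, its within-time SD of 0.04 the smallest among members, and its change 0.01 (−0.37 to 0.39) at 10 h. All 3 single-symbol GAPDH probe sets lay between 0.01 and 0.03 at 10 h. The 3 GAPDH control probe sets of the array, which carry no part in this count, spanned more over the 8 arrays. They read 13.06 to 13.28, 12.85 to 13.1 and 13.23 to 13.37. PKM, pyruvate kinase, read 11.69, 11.33 and 11.21, then 11.40, 11.70 and 11.63, then 11.72 and 11.56, and had 0.23 ± 0.21 (SE) at 10 h, the highest value of any brightest probe set and within the overlap of the arrays.

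**Figure D4:**
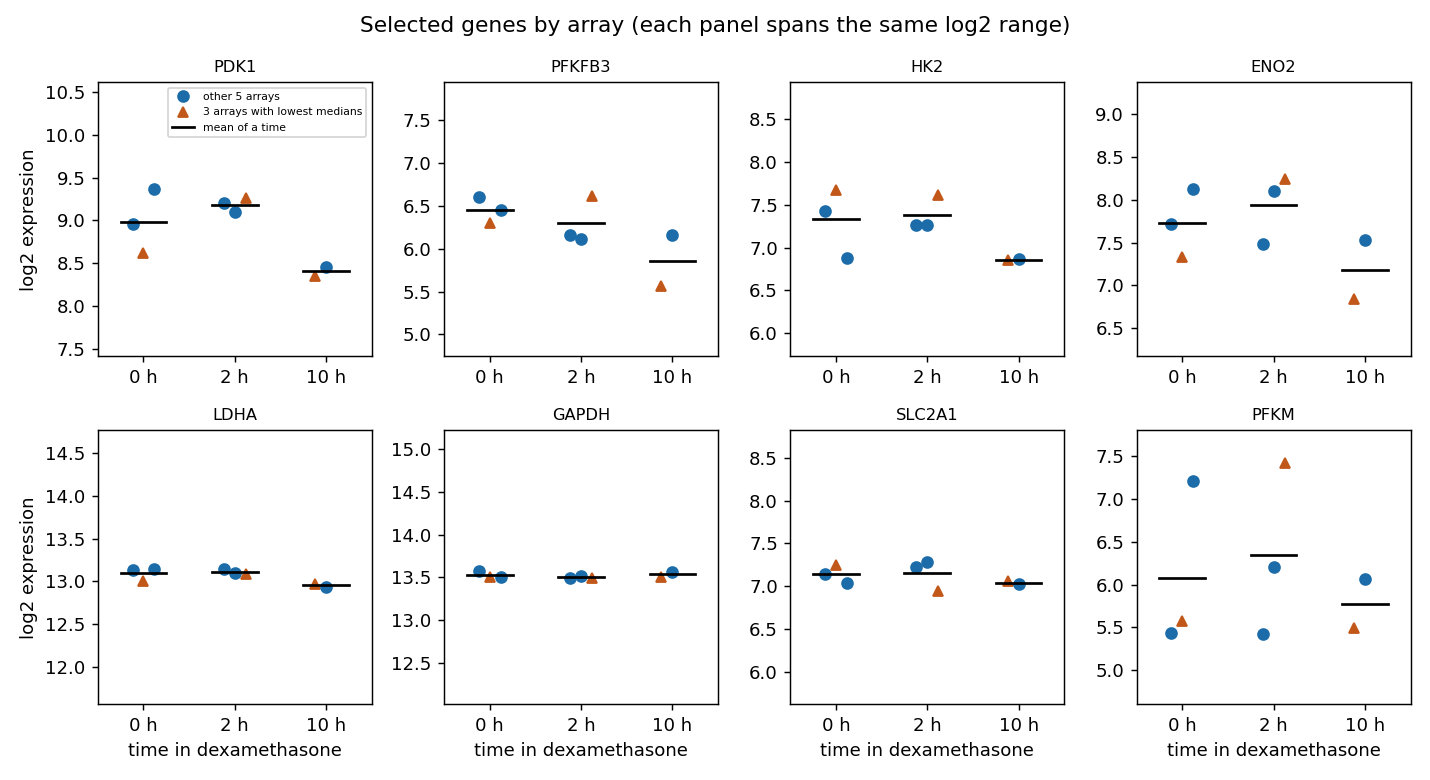
Log2 expression (y axis) in each array against time in dexamethasone (x axis) for 8 genes, on panels of equal log2 span. Bars are means of a time and triangles are the 3 arrays with the lowest medians. The 10 h arrays lie below all others for PDK1, HK2 and LDHA, GAPDH spans 0.09, and PFKM spans 2.00 with no order by time.

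Aldolase, triose phosphate isomerase, phosphoglycerate kinase, phosphoglycerate mutase and enolase carry sugar phosphates down to phosphoenolpyruvate. At 10 h ALDOA had 0.11, ALDOC −0.09, TPI1 0.02, PGK1 −0.12, PGAM1 −0.06 and ENO1 0.04, each with a standard error of 0.19 to 0.22. ENO2, the neuron-type enolase, was singled out after its values were seen. It read 7.72, 7.34 and 8.13 at 0 h, 7.48, 8.11 and 8.25 at 2 h, and 6.84 and 7.53 at 10 h. The times overlapped, with −0.54 ± 0.28 (SE) against 0 h and −0.76 ± 0.28 (SE; unadjusted p = 0.014, adjusted p = 1.00) against 2 h. Against 0 h it was −0.20 without 10 h replicate 1 and −0.89 without 10 h replicate 2, and against 2 h −0.41 and −1.10. Several of these genes have near-identical processed copies in the genome, and an array probe set need not tell them apart.

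Lactate dehydrogenase turns pyruvate into lactate and back. LDHA read 13.13, 13.01 and 13.14 at 0 h, 13.14, 13.10 and 13.09 at 2 h, and 12.97 and 12.94 at 10 h. Both 10 h arrays lay below the other 6, but the difference was small, −0.14 ± 0.18 (SE), with an interval of −0.53 to 0.24. LDHB read 13.21, 12.97 and 13.15, then 13.13, 13.13 and 13.08, then 13.02 and 13.10, with −0.05 ± 0.19 (SE) at 10 h and overlapping arrays.

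Among the 6 pentose phosphate genes, 4 values were negative and 2 positive at 10 h, with a median of −0.14, and none passed. TKT, transketolase of the non-oxidative branch, read 11.43, 11.27 and 11.25 at 0 h, 11.24, 11.39 and 11.39 at 2 h, and 10.92 and 11.35 at 10 h. A single array, 10 h replicate 1, was low, and the change of −0.19 became 0.03 without it. RPIA, which makes ribose 5-phosphate, read 9.92, 9.76 and 10.06 at 0 h, 9.89, 9.89 and 9.83 at 2 h, and 9.30 and 9.75 at 10 h. It had −0.39 ± 0.20 (SE; unadjusted p = 0.067, adjusted p = 1.00), with the second 10 h array just below the lowest of the others. The value was −0.17 without 10 h replicate 1 and −0.61 without 10 h replicate 2.

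The other genes of the branch had arrays that overlapped between the times. PGD, an oxidative-branch dehydrogenase, had −0.09, RPE, the ribulose phosphate epimerase, −0.27, and TALDO1, transaldolase, 0.15. TIGAR, a phosphatase that lowers fructose 2,6-bisphosphate, read 7.78, 7.54 and 7.69 at 0 h, 7.77, 7.55 and 7.59 at 2 h, and 7.56 and 8.15 at 10 h. One 10 h array lay among the others and 10 h replicate 2 was the highest of the 8, with a difference of 0.19 ± 0.21 (SE).

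Regulators of glycolysis held called genes on the brightest probe set. Of 26 measured regulators, 2 rose and 1 fell at 10 h, beside 66 and 4 of all 19775 genes, or 0.354% in either direction. The list was chosen with earlier results of these data known, so its count beside all genes is not a result about regulators. TXNIP, an arrestin that restrains glucose uptake, read 9.15, 8.65 and 8.74 at 0 h, 8.44, 9.05 and 8.85 at 2 h, and 10.08 and 10.47 at 10 h, clear of all other arrays. It rose by 1.43 ± 0.23 (SE; adjusted p = 0.0045) and was called on 3 of 3 probe sets. DDIT4, an inhibitor of the growth kinase mTORC1, read 10.22, 9.78 and 10.18 at 0 h, 11.04, 10.90 and 10.94 at 2 h, and 11.20 and 11.32 at 10 h. It rose by 1.20 ± 0.20 (SE; adjusted p = 0.0055) at 10 h, while its 0.90 ± 0.18 at 2 h did not pass (adjusted p = 0.263).

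MYC, which activates many glycolytic genes, fell by 1.01 ± 0.20 (SE, adjusted p = 0.030) at 10 h on its single probe set. It was not called at 10 h against 2 h (−0.89, adjusted p = 0.152) or by the moderated F test (adjusted p = 0.071). Changes of single regulators were not followed through the alternatives. HIF1A, the hypoxia-inducible factor subunit, had −0.06 ± 0.18 and ARRDC4, an arrestin related to TXNIP, 0.08 ± 0.23, neither of them called. The mean of ARRDC4 over the arrays, 4.5, lay below the highest negative control, so a change in it could be missed. The glucocorticoid-responsive genes TSC22D3, FKBP5 and NR3C1 had 4.30, 2.16 and 1.49 at 10 h, all called, in the arrays where the members were read.

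Other lists around the pathway held no called gene at 2 h or 10 h, which is not a result about them where 0.0202% and 0.354% of all genes were called. The counts were 0 of 13 other hexose transporters, 0 of 13 other glycolytic isoenzymes, 0 of 10 other pentose phosphate genes and 0 of 15 genes of pyruvate entry and lactate export. They were likewise 0 of 16 for gluconeogenesis and glycogen, 0 of 17 for the citric acid cycle and 0 of 14 for hypoxia-inducible genes outside glycolysis. The medians of these lists at 10 h lay between −0.08 and 0.06. HKDC1, a hexokinase-like enzyme, came nearest, from 4.88, 4.68 and 4.88 at 0 h to 5.78 and 5.76 at 10 h. Its arrays at 10 h lay above all others, with 0.96 ± 0.21 (SE; adjusted p = 0.078), and its 4 probe sets ran from 0.81 to 1.04. The means of the other 3, at 4.56, 4.26 and 4.10, lay below the highest negative control. The untreated values of the brightest lay close to that control, so the sizes on all 4 are uncertain. SLC16A7, a pyruvate and lactate transporter, had −0.70 ± 0.22 (adjusted p = 0.583), and its 5 probe sets ran from −0.998 to −0.662, none of them called. BSG, the chaperone of lactate transporters, had 0.68 ± 0.24 (adjusted p = 0.900). In the gluconeogenesis and glycogen list UGP2 had 0.78 at 10 h, with 0.07 on its other probe set. IDH3A of the citric acid cycle had −0.56 and MXI1 of the hypoxia-inducible list −0.61, also without a call.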

How the data were processed

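Total RNA was hybridised to 8 single-colour arrays of 54675 probe sets. The deposited values are log2 expression, made by the authors with RMA per the submitters' processing notes, which state no version. Gene names came from GEO's platform annotation of the probe sets (41091 with 1 symbol, 1801 with several, 11721 with none, 62 controls). The members and lists were chosen with earlier results of these data known.

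Each gene was represented by its brightest single-symbol probe set. This choice uses treated as well as untreated arrays. All 8 arrays were fitted together with limma 3.58.1 in R 4.3.3 (a mean per time, 5 residual degrees of freedom, eBayes), and p-values were adjusted by Benjamini-Hochberg over all 19775 genes or, for probe sets, all 41091. Called means an adjusted p below 0.05; all p-values are two-sided. The 27 Bacillus probe sets were the negative controls. The fit was tested on simulated data.

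Full values were given for called members, for those at an unadjusted p below 0.05 against 0 h and for a fixed panel. ENO2, HKDC1's arrays and the PFKFB2 probe sets were chosen after their values were seen. PFKM and RPIA, also given with every array, lie outside these rules and were not planned. Alternatives changed the probe set, normalization, dim-gene filter, variance model, arrays and blocks. Depth does not apply; the number of arrays limits the precision.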

Additional observations from a re-analysis of the deposited data

How the results depend on the processing

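The count of 0 members called held for each of the 4 tests (2 h against 0 h, 10 h against 0 h, 10 h against 2 h and any time) under all alternatives that kept the brightest probe set. It became 1, PFKFB2 each time, when the probe set changed. This happened at 10 h against 0 h and for any time with averaged probe sets, with preference for names without a cross-hybridization mark and with every probe set tested by itself, and at 10 h against 2 h with the last 2 of these. With the replicate number as a block, 0 members were called in all 4 tests. Deviations of same-numbered arrays correlated between −0.268 and 0.264. Arrays with different numbers were not compared in this way, so whether the numbers pair the arrays was not settled. The median log2 fold change of the members ran from 0.00 to 0.13 at 2 h, from −0.11 to 0.03 at 10 h against 0 h and from −0.18 to −0.02 at 10 h against 2 h, within the spread between arrays. The F test was not run on 2 groups alone, and no count was taken within the sets of 3 and 5 arrays. With either 10 h array left out the lone array is assumed to vary like the other times.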
